A study of Mus musculus with 20 samples.

Results

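The nucleus pulposus (NP) and the annulus fibrosus (AF) of the intervertebral disc were compared within the same ank mutant mice, over every gene that the array measured under 1 symbol. Of the 20 arrays of the series, the 10 labelled as ank mutant were used: 5 NP arrays and 5 AF arrays of the same 5 mice, paired by the animal number. These mice were ank/ank, 13 weeks old, 2 males (31 and 48) and 3 females (34, 39 and 41). They and their WT littermates, 2 males (32 and 59) and 3 females (33, 53 and 55) of the same age, were bred from heterozygous C3FeB6 A/Aw-J-Ank ank/J carriers, and the 10 WT arrays enter only where the mutant is set against WT. The allele is germline, so every cell of both tissues carried it, and each sample held the dissected tissue of several discs of 1 animal, from the tail according to the methods and from tail and lumbar spine according to the labels. RNA was hybridised to mouse Clariom S arrays. The Ank transcript itself was not analysed here.

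The NP is the gel-like core of the disc, and its cells descend from the notochord, keep epithelial features such as keratins and cell junctions, hold large vacuoles and live with little oxygen. The AF is the ring around it, built by fibroblast-like cells of sclerotome origin from layers of collagen I fibres, with a more cartilage-like inner zone. ANK lets cells release ATP and pyrophosphate, an inhibitor of crystal growth, and the ank allele attenuates it, and the mice develop mineral deposits at joints and in the spine.

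All levels below are log2 values, so a difference of 1 is a doubling of the signal, and the 2 scales used are the values as deposited and the same values after quantile normalization over the 10 ank arrays. Both are given because the tissues' arrays did not share a distribution: the median gene lay at 6.09 to 6.38 in the NP arrays and at 5.69 to 5.91 in the AF arrays. A gene was taken as above background when it exceeded the 95th percentile of 1425 receptor genes for odours, pheromones and trace amines, which disc tissue is not known to use. By that rule 4003 to 7429 genes were above background in the NP arrays and 1781 to 6120 in the AF arrays. The AF array of mouse 31 stood apart with 1781 genes, the lowest separation of positive from negative control probe sets (area under the curve 0.591, against 0.689 to 0.749 in the other AF arrays), and an Actb level of 15.92 against 17.99 to 18.69. Its level of the Y-linked gene Eif2s3y was 4.28, among the females' 3.89 to 4.36, although the mouse is labelled male and its NP array reads 7.43. Both Eif2s3y values of mouse 31 lay below their arrays' background limits of 8.41 and 7.77, so no reading of sex is taken from them. The added poly-A control RNA fell into a high and a low set of arrays, which no label explains. Both arrays of mice 31 and 34 were in the high set and both of mice 41 and 48 in the low set. Mouse 39 had its NP array in the high set (8.79) and its AF array in the low set (3.57). The test covered 5153 of 19505 genes, those that passed this limit on 5 or more of the 10 arrays.

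The tissue markers had the direction of the labels in each of the 5 pairs. Krt19, a keratin of notochordal cells, read 17.91, 17.55, 17.24, 17.98 and 17.05 in the NP of mice 31, 34, 39, 41 and 48, and 9.37, 14.42, 11.32, 15.27 and 16.20 in their AF. The NP arrays lay within 1 unit of each other and above every AF array, whereas the AF arrays spread over nearly 7 units. Cd24a, a surface glycoprotein of NP cells, read 18.82 to 19.32 in the NP and 12.76, 16.62, 15.35, 17.80 and 17.91 in the AF in the same order of mice. Lgals3, the galectin of notochordal cells, read 18.70, 17.63, 19.13, 19.65 and 18.56 in the NP against 9.69, 15.93, 15.09, 16.54 and 17.42 in the AF. For all 3 the AF arrays of mice 31 and 39 were the lowest and those of mice 41 and 48 the highest. The AF markers gave the opposite picture. Chad, a leucine-rich repeat protein that binds collagen and cells, read 7.30, 5.74, 6.44, 7.08 and 6.93 in the NP and 19.78, 18.48, 18.64, 15 and 16.61 in the AF. Comp, the cartilage oligomeric matrix protein, was not above background in any NP array (5.64 to 7.07) and read 15.41, 13.27, 14.34, 11.74 and 11.32 in the AF. Cytl1, a secreted protein of cartilage, read 6.54 to 9.23 in the NP and 19.93, 17.41, 16.65, 12.08 and 13.86 in the AF. Dcn, the small proteoglycan decorin, read 7.23, 9.76, 11.27, 12.64 and 6.08 in the NP and lay at the top of the array's range in 4 AF arrays, with 17.18 in mouse 41.

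**Figure D1:**
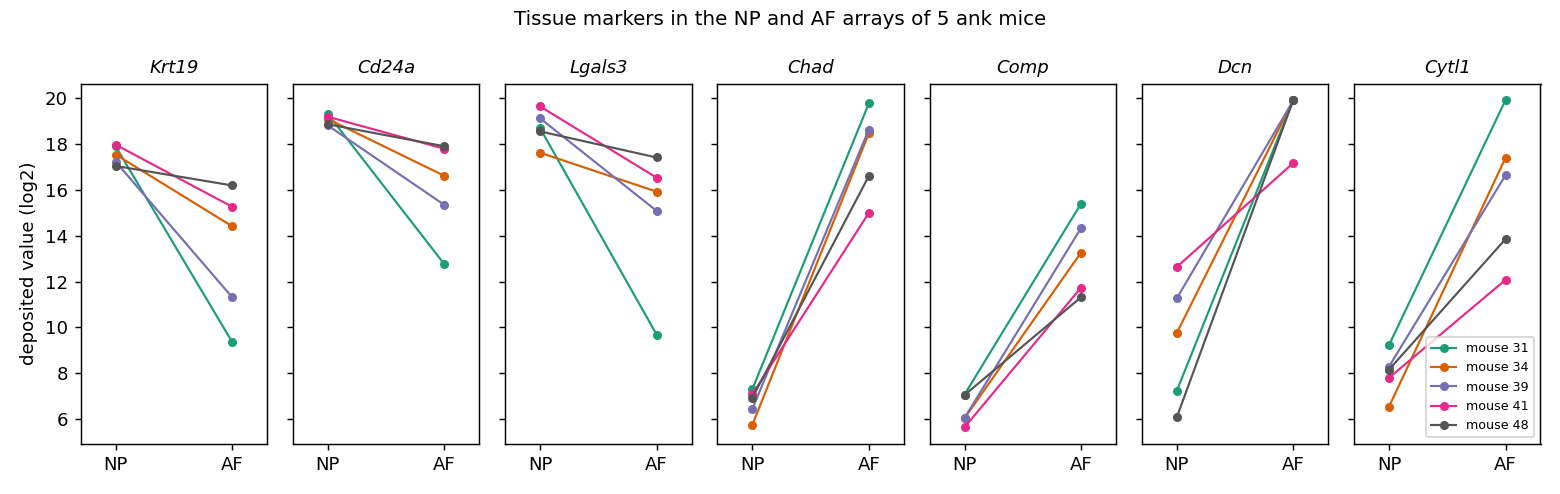
Deposited log2 values of 7 tissue markers (y axis) in the NP and AF arrays (x axis) of 5 ank mice, each line joining the 2 arrays of 1 mouse. No marker's tissues overlap; the AF arrays of mice 41 and 48 hold the highest Krt19 (15.27 and 16.20) and the lowest Comp (11.74 and 11.32).

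All 7 markers passed the test on both scales. The test was limma's moderated test with mouse as a block and Benjamini-Hochberg adjustment over the 5153 genes, and differences are NP minus AF, mean ± SD of 5 pairs. After quantile normalization Krt19 was higher in the NP by 3.28 ± 2.33 (adjusted p = 0.031), Lgals3 by 3.06 ± 2.40 (adjusted p = 0.0433) and Cd24a by 1.97 ± 1.34 (adjusted p = 0.0439). Chad was lower in the NP with a difference of -11.31 ± 2.36 (adjusted p = 4.19e-05), Cytl1 with -8.50 ± 3.11 (adjusted p = 0.000858) and Dcn with -10.39 ± 3.31 (adjusted p = 0.000533). The NP level was above background in 1 of 5 arrays for Chad, 4 for Cytl1 and 3 for Dcn, and the AF level was at the ceiling in 1 array for Cytl1 and 4 for Dcn, so these sizes rest partly on values at the limits of the range. Comp was at least 105-fold higher in the AF after quantile normalization (adjusted p = 0.000533), its NP level being replaced by the background limit. This and all lower bounds below hold for the quantile normalized values only. No bound was computed on the deposited values. With 1 mouse left out in turn, Krt19 and Lgals3 kept the call in 2 of 5 cases and Cd24a in 1 of 5, all 3 losing it without mice 34, 39 and 41. Without mouse 39 their differences were 3.05, 3.17 and 2.11 (adjusted p = 0.151 to 0.166), and without mouse 31 they were 2.38, 2.01 and 1.36. The 4 AF markers kept the call without any 1 mouse. On the deposited values all 7 kept it without any 1 mouse.

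Sequence upstream of 3 of these genes is shown because the promoters of genes so far apart between tissues are the stretches a reader would compare first. RefSeq places the 250 bases before the Chad start at chr11:94564797-94565046, those before Col1a2, the collagen I chain described below, at chr6:4505368-4505617, and those before Lgals3 at chr14:47373610-47373859, all on the plus strand of GRCm38.p6. Capitals mark ACGTG, the core bound by hypoxia-inducible factors and part of the E-box, or its reverse CACGT, and TATAAA, the TATA box motif, both searched on both strands.
Chad: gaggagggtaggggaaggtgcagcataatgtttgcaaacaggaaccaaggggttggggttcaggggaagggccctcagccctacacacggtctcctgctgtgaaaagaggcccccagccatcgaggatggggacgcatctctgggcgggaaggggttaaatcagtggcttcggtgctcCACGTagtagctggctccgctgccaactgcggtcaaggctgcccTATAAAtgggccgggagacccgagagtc
Col1a2: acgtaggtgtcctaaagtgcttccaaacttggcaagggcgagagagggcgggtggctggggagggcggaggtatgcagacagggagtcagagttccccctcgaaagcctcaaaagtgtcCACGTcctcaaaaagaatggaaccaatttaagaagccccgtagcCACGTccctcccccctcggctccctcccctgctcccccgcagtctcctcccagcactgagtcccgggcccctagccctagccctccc
Lgals3: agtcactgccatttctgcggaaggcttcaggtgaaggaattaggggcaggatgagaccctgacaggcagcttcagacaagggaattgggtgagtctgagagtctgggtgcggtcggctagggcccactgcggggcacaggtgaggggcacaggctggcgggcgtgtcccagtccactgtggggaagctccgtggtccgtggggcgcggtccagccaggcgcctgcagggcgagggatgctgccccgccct
Chad holds CACGT and TATAAA, Col1a2 holds CACGT at 2 places, and the Lgals3 window holds neither. ACGTG was present in 26.1% of the 115 promoters found for genes higher in the NP and in 14.5% of the 62 found for genes higher in the AF, against 23.1% of 4213 promoters of genes tested and 16.6% of all 27025. TATAAA was present in 4.35% and 16.1% of these sets, against 6.79% and 13.0%. A match is a description of the letters and no sign that a factor binds.

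Across the transcriptome the 2 scales gave very different counts. After quantile normalization 159 genes were higher in the NP (3.09% of 5153) and 137 in the AF (2.66%), so that 53.7% of the calls were higher in the NP. On the deposited values 2709 genes were higher in the NP (52.6%) and 85 in the AF (1.65%), 97.0% of the calls being in the NP, with a median difference over the genes tested of 1.09 against 0.12 after quantile normalization. Centring each array on its median gave a median difference of 0.65 and 87.7% of calls in the NP. No gene was called in opposite directions. The differences that held on both scales were 159 higher in the NP (3.09%) and 83 higher in the AF (1.61%), and these 242 genes (4.7%) are meant below by genes that held. Holding does not mean the same on the 2 sides. The deposited values called 52.6% of all genes higher in the NP, and none of the 159 NP calls was lost there. For the NP side the second scale was therefore a weak check. The tissues did not overlap at all in 249 genes higher in the NP (4.83%) and 186 higher in the AF (3.61%) after quantile normalization, and in 1297 (25.2%) and 54 (1.05%) on the deposited values. Some genes passed the background filter only through the tissue where they were high: 16 of the 83 had no NP array above background and 6 of the 159 had no AF array above it, Comp, Lum, Thbs1, Wif1, Cnmd, Col10a1 and Ckm among the former. Others would also have passed by the AF alone. Chad, Vcan, Ibsp, Lox, Col2a1 and Tgfb1, for example, were above background in all 5 AF arrays and in 1 NP array. In the same way genes passed by the NP alone. Zfyve28, Frmd5, Rgs9bp, Krt80 and Dsg2, for example, were above background in all 5 NP arrays and in 1, 2, 3, 3 and 3 AF arrays. Only 36 of the 159 and 25 of the 83 were above background in all 10 arrays. For all such genes the filter favoured a difference, so their p-values add no separate support. The counts are therefore a description of the genes tested. The 54 AF calls that did not hold were negative on the deposited scale too, without passing the test there.

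**Figure D2:**
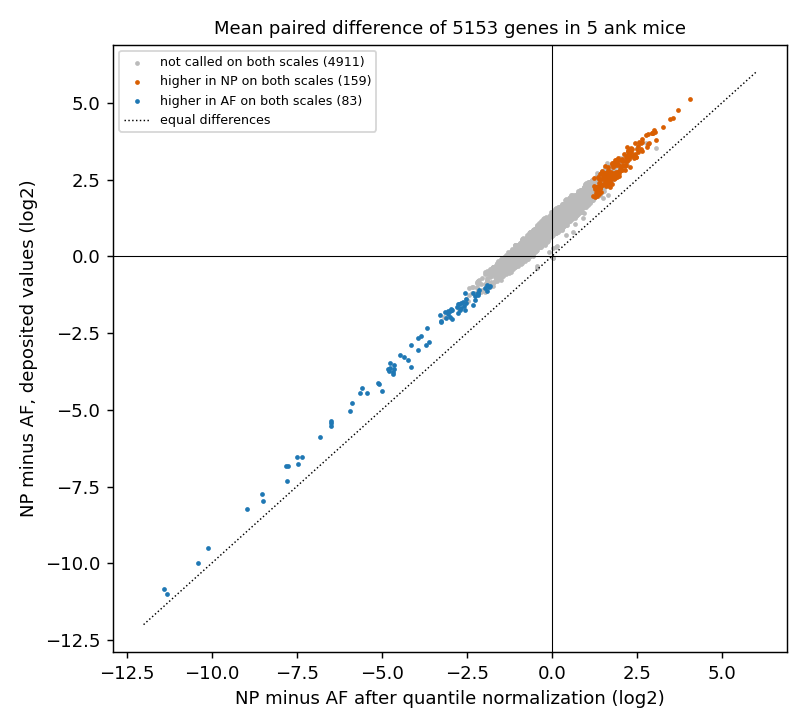
Mean paired NP minus AF difference of the 5153 genes tested, after quantile normalization (x axis, log2) and on the deposited values (y axis, log2), with the 159 genes higher in the NP in orange, the 83 higher in the AF in blue and the others in grey. The cloud lies above the dotted line of equal differences, with medians of 0.12 and 1.09, while the ends of the cloud keep their side on both scales.

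Requiring both scales dropped 54 AF calls and no NP call, so the genes of the 2 directions were not selected alike and their sizes compare only loosely. As selected, the AF-higher genes had the larger fitted differences. Their median after quantile normalization was -3.68, with 38 of 83 beyond 4 in size, and 82 had the same sign in all 5 mice. The NP differences had a median of 1.84 and spanned 1.21 to 4.05, with 60 of 159 beyond 2 and 156 of the same sign in all 5 mice. Mice contributed unequally: the median NP-higher gene differed by 2.97 in mouse 31, 1.59 in mouse 34, 2.28 in mouse 39, 1.38 in mouse 41 and 1.16 in mouse 48, and the median AF-higher gene by -4.43, -4.14, -4.60, -2.36 and -2.75. The pairs of mice 41 and 48, whose AF arrays read highest for the NP markers above, were thus the closest on both sides. They were also the pairs with both arrays in the low poly-A control set. Krt19, for example, differed by 4.62 in mice 31 and 34 of the high set and by 1.59 in mice 41 and 48. The parts of NP tissue in the AF samples and of the control set in this were not tested.

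Without mouse 39, which leaves only pairs that share a poly-A control set, 1 gene was higher in the NP after quantile normalization and 47 in the AF, and without mouse 34 the counts were 15 and 61. The deposited values gave 1405 and 67 without mouse 39. The 1 gene was Frmd5, a FERM domain protein of cell contacts, named after its values were seen: it read 9.56, 10.51, 11.56, 11.43 and 9.27 in the NP and 6.14, 7.08, 6.73, 8.0 and 7.37 in the AF, a difference of 2.52 ± 0.80 (limma adjusted p = 0.00512), and it alone of the 159 kept its call without any 1 mouse on the quantile scale. Of the 83 AF-higher genes 46 did so. On the deposited scale all 159 and 61 of the 83 did so, but that scale called 52.6% of all genes higher in the NP. Named genes also lost AF-side calls after quantile normalization when 1 mouse was left out: of those described below Serpina3n, Csgalnact2, Tgfb1, Col10a1, Ccn2, Acta1, Ckm, Dkk3, Hif1a, Plod2, Slc38a2 and Egr1. Genes with 1 mouse against the rest, likewise named after their values were seen, were Car2, Cryab and Ncam1 among the NP-higher and Adgrg6 among the AF-higher.

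The 15 NP-higher genes furthest apart include Krt19 and Lgals3, given above. Ndrg1, which oxygen shortage induces in many cells, read 15.87, 15.42, 15.14, 15.03 and 12.28 in the NP and 7.71, 11.74, 8.47, 10.06 and 10.16 in the AF. Its tissues did not overlap, and its difference of 4.05 ± 2.23 was the largest fitted in this direction (limma adjusted p = 0.0123). Cited2, a co-regulator that restrains hypoxia-inducible factors, read 19.18, 19.42, 19.17, 17.09 and 15.51 against 11.50, 16.14, 13.19, 14.81 and 14.69, so the NP array of mouse 48 lay below the AF array of mouse 34. Id4, an inhibitor of helix-loop-helix factors, differed by 3.01 ± 1.95, and Sik1, a salt-inducible kinase, by 2.93 ± 1.92. Sesn3, a stress-induced sestrin that dampens mTORC1, read 17.50 to 18.83 in the NP and 10.21 to 15.99 in the AF, a difference of 2.85 ± 1.52.

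Other genes of the 15 have varied roles. Ndnf, a secreted neurotrophic factor, read 17.85, 16.88, 17.32, 15.99 and 16.03 in the NP and 8.75, 13.71, 11.70, 12.59 and 13.41 in the AF, with no overlap and a difference of 3.71 ± 2.33 (limma adjusted p = 0.0216). Gpc3, a glypican that modulates hedgehog and other ligands, read 14.68 to 17.25 against 8.22 to 13.84, a difference of 3.03 ± 1.46 (adjusted p = 0.0107). Slc15a5, a member of the peptide transporter family, differed by 3.49 ± 2.52, and Rgs9bp, an anchor of a G-protein regulator known from the retina, by 3.55 ± 2.45. Perp, a desmosomal protein, differed by 2.84 ± 1.57 and the keratin Krt80 by 2.83 ± 1.79. The adaptor subunit Ap1s2 differed by 2.93 ± 2.31 and the FYVE-domain protein Zfyve28 by 2.78 ± 1.47. All 15 were higher in the NP in 5 of 5 mice, had adjusted p between 0.0107 and 0.044 and lost the call without mouse 39. The AF level was above background in 1 array for Zfyve28, in 3 for Rgs9bp and Krt80 and in 4 or 5 for the others.

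**Figure D3:**
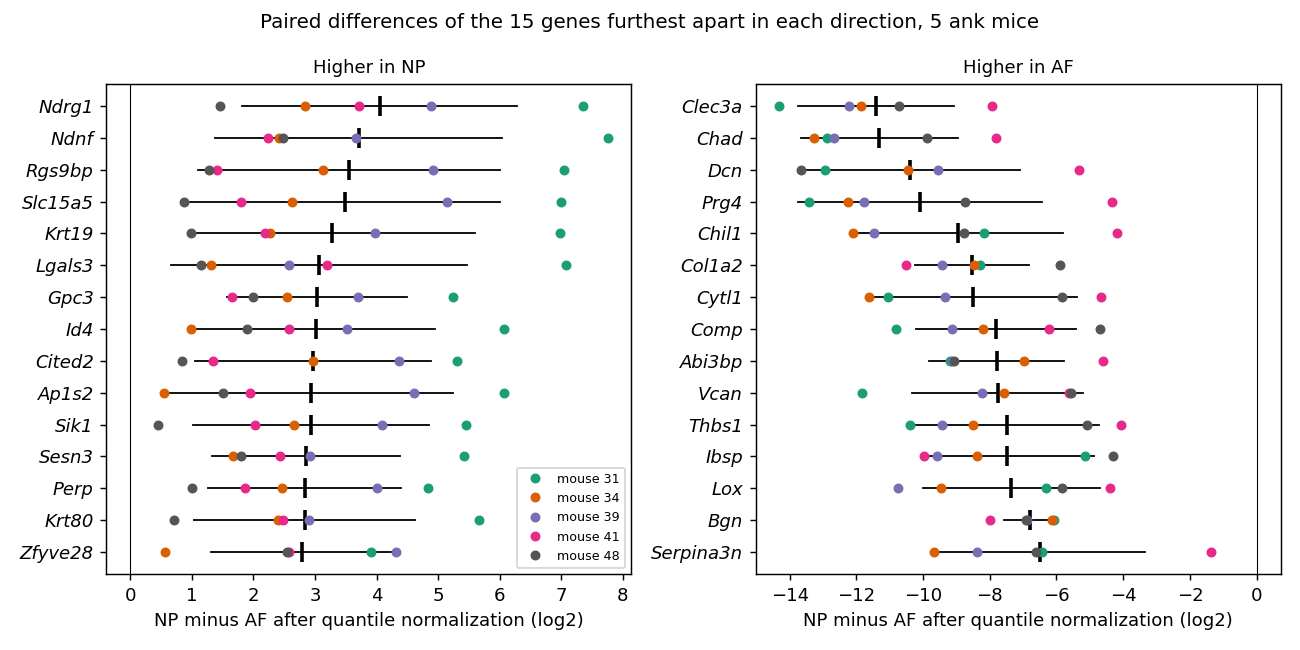
NP minus AF after quantile normalization (x axis, log2) for the 15 genes furthest apart in each direction among those that held with 1 sign in all mice; points are mice, the tick is their mean and the line 1 SD on each side. Mouse 31 gives the largest NP-higher values of 14 genes. No mouse crosses 0 in either panel.

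The 15 AF-higher genes furthest apart include the markers Chad, Comp, Dcn and Cytl1. Clec3a, a cartilage lectin, read 5.26, 6.02, 7.22, 6.86 and 5.40 in the NP and 17.88, 17.28, 18.75, 14.93 and 16.18 in the AF, a difference of -11.42 ± 2.34 (limma adjusted p = 4.19e-05). Prg4, the joint lubricant lubricin, read 6.49 to 8.58 against 18.69, 19.05, 19.23, 12.40 and 15.74. Abi3bp, a collagen-associated matrix protein, read 8.14 to 11.30 against 14.38 to 19.93, and the large proteoglycan Vcan read 6.46 to 7.74 against 11.93 to 17.03. Bgn, the proteoglycan biglycan, read 9.64 to 13.80 against 17.19 to 18.02 and was the steadiest of them, with -6.80 ± 0.79 (adjusted p = 2.34e-05). Lox, the enzyme that starts collagen crosslinks, read 5.07 to 6.87 against 10.09, 15.29, 15.14, 10.94 and 10.83. The NP level was above background in 1 of 5 arrays for Vcan, Ibsp and Lox, in 2 for Clec3a, Prg4 and Chil1 and in 3 for Col1a2 and Serpina3n, and 1 AF array was at the ceiling for Chil1 and Abi3bp, so the sizes of these differences have no firm order.

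Some of these genes varied widely between AF arrays. Chil1, a chitinase-like glycoprotein, read 11.78, 19.93, 19.79, 11.22 and 13.80 in the AF and 5.20 to 8.81 in the NP. Serpina3n, an acute-phase protease inhibitor, read 11.15, 17.49, 17.38, 8.56 and 11.68 against 5.51 to 10.19. Its tissues overlapped, with the AF of mouse 41 below the NP of mouse 39. In both genes the AF of mice 34 and 39 was high and that of mouse 41 low. Lcn2, a neutrophil and acute-phase protein, was high in the same 2 AF arrays, at 16.48 and 19.72, against 7.0, 11.43 and 12.15 in mice 31, 41 and 48. Lcn2 differed by -5.00 ± 2.63 between the tissues (limma adjusted p = 0.00847), and it was the only tested gene of 14 measured neutrophil and marrow genes, of which 13 were below background in all 10 arrays.

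Collagens and other AF matrix genes follow by list. Lists are given by counts and medians only, and each count is to be read against the shares of all genes called, 3.09% and 2.66% after quantile normalization and 52.6% and 1.65% on the deposited values. Of 26 listed AF and tendon genes 12 were tested, 8 were higher in the AF on both scales and none in the NP after quantile normalization, with a median difference of -4.12 (deposited -3.23) against 0.12 (1.09) for all genes. Of 33 collagen chain genes 12 were tested, 12 others were below background in every array, and 8 of the 12 were higher in the AF, 7 on both scales. Col1a2 read 6.60 to 8.34 in the NP and 12.51, 15.92, 15.63, 18.39 and 14.15 in the AF, a difference of -8.53 ± 1.72 (limma adjusted p = 4.23e-05), and its partner Col1a1 read 7.40 to 8.51 against 9.46, 12.93, 11.25, 15.09 and 10.78 (adjusted p = 0.00417). The AF array of mouse 41, lowest for Chad and Prg4, was the highest for both collagen I chains. Col2a1, the cartilage collagen, read 6.64 to 7.47 against 9.52 to 12.71 (adjusted p = 0.000902), and Col6a3, a chain of the pericellular collagen VI, read 10.68 to 12.12 against 11.66 to 13.55 with overlap (-2.54 ± 0.69, adjusted p = 0.00374).

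Of 7 small leucine-rich proteoglycans tested, Bgn, Chad, Dcn and Lum held, with a list median of -3.60. Lum, lumican, was not above background in any NP array (5.83 to 6.99) and read 8.03 to 10.42 in the AF. After quantile normalization Lum was at least 5.47-fold higher there (limma adjusted p = 0.00078). Of 10 cartilage matrix genes tested, 5 were higher in the AF after quantile normalization and 4 on both scales, with 1 higher in the NP on the deposited values. Cnmd, chondromodulin, was at least 10.4-fold higher in the AF after quantile normalization. On the same scale Hapln1, the link protein of aggrecan and hyaluronan, differed by -3.12 ± 0.40 (adjusted p = 0.000735). Hapln1 read 12 to 14.61 in the NP and 14.36 to 16.61 in the AF on the deposited scale. Acan, aggrecan itself, named after its values were seen, read 19.22 to 19.76 in the NP and 19.58 to 19.93 in the AF. Acan was at the ceiling in 4 AF arrays, so no fold can be given, and the same holds for the NP marker Car3, carbonic anhydrase 3, at 19.68 to 19.93 and 19.55 to 19.93. Of 14 chondroitin sulfate synthesis genes tested only Csgalnact2, which starts the chains, was called after quantile normalization. It read 9.11 to 10.75 in the NP and 14.52, 14.24, 16.28, 10.75 and 11.63 in the AF (-4.74 ± 2.70, adjusted p = 0.0125), so that mouse 41 showed no difference on the deposited scale, where 7 other genes of the list were higher in the NP.

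Matricellular proteins and bone genes were also called mainly on the AF side. Of 10 matricellular genes tested, 5 were higher in the AF after quantile normalization and 4 on both scales, with 3 higher in the NP on the deposited values. Thbs1, a thrombospondin that activates TGF-beta, read 4.0 to 4.92 in the NP, below background in every array, and 12.96, 12.52, 12.57, 8.53 and 8.67 in the AF. After quantile normalization Thbs1 was at least 24.7-fold higher there (limma adjusted p = 0.000947). Thbs2 differed by -3.27 ± 0.95 (adjusted p = 0.00178) and Ccn2, a connective tissue growth factor, by -2.72 ± 1.74 (adjusted p = 0.0263), the latter with 1 mouse reversed on the deposited scale. Sparc, osteonectin, read 14.90 to 17.60 in the NP and 19.91 to 19.93 in all 5 AF arrays, at the ceiling in each (-4.14 ± 1.09 after quantile normalization, adjusted p = 0.000735). With the AF saturated throughout, the deposited difference of -3.61 understates the size. Ibsp, the bone sialoprotein, read 7.02, 9.28, 5.98, 5.61 and 6.56 in the NP and 10.16, 17.12, 14.80, 15.96 and 10.33 in the AF, with no overlap (-7.47 ± 2.60, adjusted p = 0.000778) and an NP level above background in 1 of 5 arrays only. Sparc and Ibsp were 2 of the 3 tested of 13 measured osteoblast and osteocyte genes. Alpl, Sp7 and Bglap, of the same list, were not tested for low signal, with Alpl and Sp7 below background in all 10 arrays. Col10a1, the collagen of hypertrophic chondrocytes, was below background in the NP (4.86 to 6.16) and read 10.18, 7.64, 9.10, 7.25 and 8.15 in the AF. After quantile normalization Col10a1 was at least 3.74-fold higher there (adjusted p = 0.0128). In WT mice the quantile normalized differences of Ibsp, Sparc and Col10a1 were -6.93, -2.92 and -3.57.

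Of 16 listed genes that handle pyrophosphate and phosphate, the substrates the ank allele concerns, only 4 were tested, and these passed on neither scale. The 4 were Slc20a1, Slc20a2, Mgp and Smpd3. Of 12 measured 6 were below background in all 10 arrays, Alpl, Enpp3 and Abcc6 among them. Enpp1, Enpp2, Phospho1 and Spp1 were not matched to a measured gene. The values therefore give no result for these untested genes. The phosphate importer Slc20a1 read 10.85, 11.47, 11.65, 13.55 and 12.66 in the NP and 12.12, 10.21, 10.61, 12.54 and 12.04 in the AF, and the mineral inhibitor Mgp read 10.03 to 13.61 against 9.56 to 12.67. Both overlapped and had a difference below 0 after quantile normalization (-0.88 and -0.20) and above 0 on the deposited values (0.53 and 1.06), as did Slc20a2 and Smpd3.

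The secreted Wnt antagonists Wif1 and Frzb and the BMP antagonist Grem1 were among the AF-higher signalling genes. Wif1, which binds Wnt ligands, read 5.50 to 6.16 in the NP, below background, and 10.98, 10.77, 13.73, 10.88 and 9.80 in the AF. After quantile normalization Wif1 was at least 26.6-fold higher there (limma adjusted p = 0.000215). Frzb, a secreted frizzled-related protein, read 7.48 to 10.44 against 11.51 to 17.22 (adjusted p = 0.000735). With Dkk3, called after quantile normalization only (adjusted p = 0.0443, deposited 0.0518), they were 3 of 10 Wnt genes tested, with a list median of -0.08, and on the deposited values 5 Wnt genes were higher in the NP and 2 in the AF. Grem1, a BMP antagonist, read 6.93 to 8.50 against 13.88, 12.14, 13.46, 10.97 and 10.29, with no overlap (-5.62 ± 2.44, adjusted p = 0.00306). Chrd, another BMP antagonist, named after its values were seen, was higher in the NP on the deposited values, at a mean of 8.74 against 7.7 (limma adjusted p = 0.0308). After quantile normalization Chrd differed by 0.15 without passing. The antagonists Nog, Fst, Dkk1 and Sfrp1 were not tested for low signal. Of 20 TGF-beta and BMP genes tested, 4 were higher in the AF and 1 in the NP after quantile normalization, while on the deposited values 3 were higher in the AF and 8 in the NP. The 3 include Tgfb1, the ligand, at 6.88 to 7.68 in the NP and 8.52 to 9.57 in the AF (adjusted p = 0.00642), and its target Tgfbi (adjusted p = 0.00306). Fstl3, which binds activins, was higher in the NP, at 9.29 to 10.39 against 5.84 to 8.26 (1.63 ± 0.60, adjusted p = 0.0259).

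On the NP side few genes of each list passed the test. Of 16 NP and notochord genes 8 were tested, and all 8 had a difference above 0 after quantile normalization, with a median of 1.92 (deposited 2.96) and 3 that passed, Krt19, Lgals3 and Cd24a, against 7 on the deposited values. The smallest of the 8, Car3, is at the ceiling. Cdh2, N-cadherin, read 14.30 to 15.24 in the NP and 8.80, 12.90, 10.53, 13.10 and 13.75 in the AF, with no overlap and 1.87 ± 1.66 (limma adjusted p = 0.0747). The notochord factors Noto, Shh, Foxa1 and Foxa2 were not tested for low signal in both tissues. Of 9 desmosome genes tested Perp and Dsg2, a desmosomal cadherin, held and 7 were higher on the deposited values, with a median of 1.76. Dsg2 read 10.53 to 11.94 against 5.90, 7.84, 6.44, 9.13 and 10.09 (2.45 ± 1.67, adjusted p = 0.0349). The desmosomal anchor Dsp read 13.47 to 14.85 in the NP and 6.84, 10.69, 9.31, 13.62 and 13.25 in the AF, so that mice 41 and 48 differed little, and did not pass (adjusted p = 0.086). The list's median was 3.28, 1.84 and 3.05 in mice 31, 34 and 39 and 0.22 in mice 41 and 48.

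**Figure D4:**
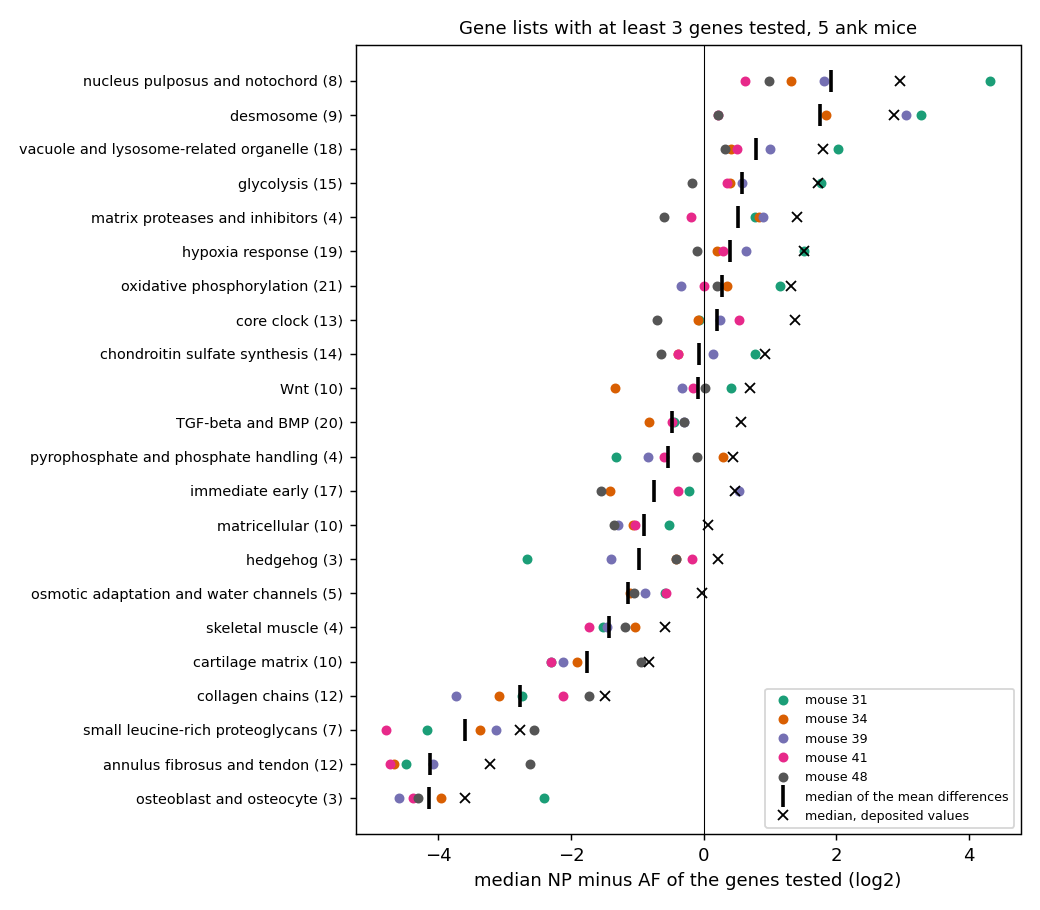
Median NP minus AF difference (x axis, log2) of the genes tested in each list with at least 3 of them (number in brackets); points are mice and ticks the medians after quantile normalization, crosses the medians on the deposited values. NP and notochord genes (1.92) and desmosome genes (1.76) lie at one end and the osteoblast, AF, small proteoglycan and collagen lists (-4.14, -4.12, -3.60 and -2.77) at the other, and every cross lies to the right of its tick.

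Energy metabolism depended on the scale. Of 15 glycolysis genes tested none passed after quantile normalization and 8 were higher in the NP on the deposited values, where 52.6% of all genes were, with list medians of 0.58 and 1.72. Pgk1, a glycolytic kinase, read 13.90 to 14.92 in the NP and 8.23, 12.07, 10.54, 13.06 and 12.40 in the AF (limma adjusted p = 0.0726). Of 19 hypoxia response genes tested 15 were higher in the NP on the deposited values, and after quantile normalization 2 were higher in each tissue. Ndrg1 and the mitophagy receptor Bnip3 held as higher in the NP. Bnip3 read 11.30 to 12.89 against 7.08, 9.65, 8.40, 9.71 and 9.59, a difference of 2.07 ± 1.26 (adjusted p = 0.033). Hif1a, the oxygen-regulated subunit, and Plod2, a lysyl hydroxylase, were higher in the AF after quantile normalization only (adjusted p = 0.0433 and 0.0411, against 0.259 and 0.0755 on the deposited values). Hif1a read 12.46 to 13.78 in the NP and 11.65 to 15.01 in the AF, overlapping. Of 21 oxidative phosphorylation genes tested 16 were higher in the NP on the deposited values and 1 after quantile normalization. That gene, Ndufa8, a subunit of complex I, had nearly the same difference in every pair on the quantile scale (1.42 ± 0.12, adjusted p = 0.0261). The deposited pairs spread more (2.67 ± 0.54), and with 1 mouse left out in turn Ndufa8 kept the quantile call in 2 of 5 cases.

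Vacuole genes depended on the scale as well. Of 18 vacuole and lysosome-related organelle genes tested 14 were higher in the NP on the deposited values and 2 after quantile normalization. Atp6v1h, a proton pump subunit, and Rab38, a trafficking GTPase of lysosome-related organelles, held. Atp6v1h read 9.33 to 9.97 in the NP and 6.96 to 7.62 in the AF (1.42 ± 0.17, limma adjusted p = 0.0263), and Rab38 read 13.20 to 14.83 against 8.16, 11.74, 9.69, 11.25 and 11.84 (2.13 ± 1.45, adjusted p = 0.0413). Caveolin Cav1 did not pass after quantile normalization (1.86 ± 1.41, adjusted p = 0.0563). Of 5 osmotic genes tested 1 was higher in the NP on the deposited values and 1 in the AF after quantile normalization. Nfat5, the tonicity-responsive factor, read 8.25 to 10.14 against 8.63 to 9.72 (adjusted p = 0.0676, deposited 0.95). The cotransporter Slc12a2 read 15.82 to 17.11 against 11.37 to 15.04 (1.64 ± 1.32, adjusted p = 0.0704). The amino acid carrier Slc38a2 was higher in the AF after quantile normalization only (adjusted p = 0.0216, deposited 0.252).

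Immediate early genes, which cells switch on quickly after a stimulus, differed widely between mice. Egr1 read 13.34, 8.24, 19.30, 16.31 and 10.79 in the NP and 13.83, 11.81, 18.47, 16.76 and 14.03 in the AF, high in both tissues of mice 39 and 41. Egr1 was the 1 call among 17 immediate early genes tested, higher in the AF after quantile normalization only (limma adjusted p = 0.0349, deposited 0.0836, and 0.400 without the mouse block). Of 13 core clock genes tested none passed after quantile normalization and 8 were higher in the NP on the deposited values, with medians of 0.21 and 1.38.

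Markers of neighbouring tissues moved with some of these groups. Of 25 measured skeletal muscle genes 4 were tested and Acta1 and Ckm, the muscle actin and creatine kinase, held as higher in the AF. Ckm read 5.83 to 7.13 in the NP, below background, and 7.37 to 8.44 in the AF. After quantile normalization Ckm was at least 2.09-fold higher there (limma adjusted p = 0.0162). The mean level of the 25 genes ran from 5.51 to 6.57 in the NP and from 5.78 to 7.27 in the AF, highest in mouse 41, with 18 genes above background in some AF array. The NP and notochord list had a mean level of 11.17 to 11.52 in the NP and of 8.17, 10.09, 9.28, 10.45 and 10.71 in the AF of mice 31, 34, 39, 41 and 48. Among red blood cell genes Car2, which red cells and other cells express, held as higher in the NP at 11.33, 8.76, 13.70, 14.18 and 9.45 against 6.61, 6.19, 8.59, 13.17 and 7.23. Only 1 macrophage and osteoclast gene, 1 epidermis gene and 2 Schwann cell genes were tested, without a call after quantile normalization. Flt1, the 1 endothelial gene tested, was not called either (adjusted p = 0.0531). With 0 of 9 measured adipocyte genes tested, no call was possible for that list. The values therefore give no result for most genes of these lists. The part of such tissue in the differences was not tested, and in bulk tissue fewer cells of a type and less RNA per cell cannot be told apart.

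The tissue differences that held in the mutant had the same direction in WT for 158 of the 159 NP-higher and all 83 AF-higher genes. In the WT arrays, treated alike, 874 of 5451 genes were higher in the NP (16.0%) and 399 in the AF (7.32%) after quantile normalization, and 3463 (63.5%) and 85 (1.56%) on the deposited values. The AF arrays of WT mice 32, 53, 55 and 59 had 2831 to 3811 genes above background, with control areas under the curve of 0.607 to 0.663. That of WT mouse 33 had 6362 and 0.763. The ank AF arrays had 1781 to 6120 and 0.591 to 0.749. The part of signal quality in the WT counts and medians was not tested. Of the mutant's NP-higher genes 154 were tested in WT and 129 were called there (83.8%), with a median WT difference of 2.24, and of its AF-higher genes 69 were tested and 66 called (95.7%), with a median of -3.75. In the other direction, 775 of the 874 WT NP-higher genes were tested in ank, 769 had the same sign, 129 were called, and their median was 1.80 in WT and 1.16 in ank. Of 366 WT AF-higher genes tested in ank 363 had the same sign and 97 were called, with medians of -1.86 and -1.21. Across the 4857 genes tested in both, the 2 differences correlated with Pearson's r of 0.884 and Spearman's rho of 0.828, as a description across genes measured on the same arrays.

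**Figure D5:**
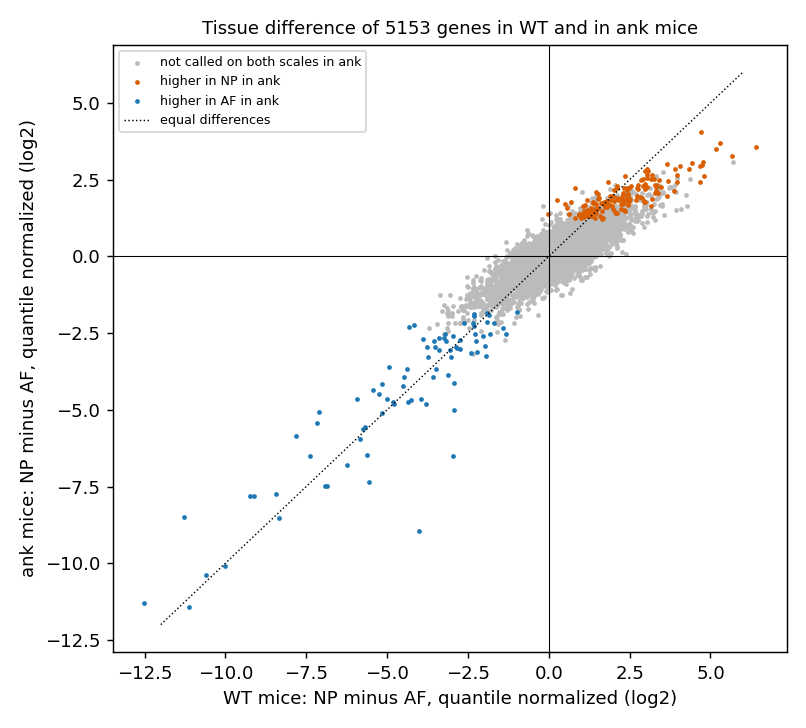
Mean NP minus AF difference after quantile normalization of the 5153 genes in WT mice (x axis, log2) and in ank mice (y axis, log2), with genes that held in ank in colour. The coloured genes share their sign in WT in all cases but 1.

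A smaller median in ank is not by itself a difference between genotypes, and the difference was tested as a tissue by genotype term over all 20 arrays. None of 5747 genes passed (0.0%), the smallest adjusted p by limma being 0.973, and 227 genes had an unadjusted p under 0.05. The 95% interval of the difference between genotypes had a median half-width of 1.23, so that differences of that size were within reach of the error for a typical gene. For Krt19 the tissue difference was 3.28 in ank and 5.66 in WT, and the interval of the genotype difference ran from -5.69 to 0.88. For Chad it ran from -0.92 to 3.48. The genes with the smallest p were Rbm15, Naa38, Zfp385b, Gpr34, Atg12 and Igfbp4. Rbm15, an RNA-binding protein, differed between tissues by 2.39 in WT and 0.08 in ank, with an interval from -3.44 to -1.21. Zfp385b, a zinc finger protein, differed by 2.54 and 0.83. After adjustment none of the 6 passed (limma adjusted p = 0.973). Gpr34 and Igfbp4 were below background in all 5 ank NP arrays, so no size is given for them.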

How the data were processed

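Disc tissue of 5 ank/ank and 5 WT mice was profiled on 20 Clariom S arrays. The authors normalized the signals by sst-rma in the Transcriptome Analysis Console, and the deposited values are log2 values, 1 per probe set. RNA of moderate integrity was used, and the tissues' medians differ as deposited. Of 28846 probe sets 19572 carried 1 symbol; for 55 genes with more than 1 the brighter was kept. Values within 0.1 of the table's top were called ceiling. The 10 ank arrays were quantile normalized and fitted with limma 3.58.1 in R 4.3.3, mouse as a fixed block, with Benjamini-Hochberg adjusted p under 0.05; the deposited values were fitted alike. Lower bounds set background-level signals to the background limit, on the quantile normalized values only. The pairing by animal was checked on deviations from group means, whose correlation had a median of 0.394 in the same mouse and -0.0565 in different mice. The ranges overlapped, with 0.0555 to 0.644 in the same mouse and -0.575 to 0.470 in different mice. In mice 48 (0.0555) and 39 (0.0967) the NP array correlated more with the AF array of another mouse. The check therefore does not settle the pairing of each mouse. Members and the 32 gene lists (600 of 648 entries matched) were chosen with earlier results of these data known. Named were the 7 markers, the 15 genes furthest apart in each direction that passed on both scales with 1 sign in all mice, up to 4 members of each list described by smallest p, and the 6 smallest p of the genotype test. The scripts were tested on simulated data. The number of arrays limits the precision. Alternatives were other scalings, blocks, filters, weights and thresholds and leaving out each mouse. Figures were drawn with matplotlib 3.10.9.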

Additional observations from a re-analysis of the deposited data

Results flagged for a closer look

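In the group of 5 AF arrays Dcn in mouse 41 lay far below the others, at 17.18 against 19.91 to 19.93, and in the 5 NP arrays Ndrg1 in mouse 48 lay far below, at 12.28 against 15.03 to 15.87. Both gaps exceeded Dixon's 95% limit of 0.71 of the range, a limit that chance passes in about 1 in 20 groups, and 62 groups were examined. The other 4 Dcn values were at the ceiling of the array, where their spread is cut off, so that any value below the ceiling would pass this limit. Gpr34, a receptor of microglia and macrophages, was higher in the NP in 5 of 5 ank mice and lower in 5 of 5 WT mice on the deposited values, a difference of 1.32 between the genotypes. After quantile normalization its mean difference in ank was -0.24, below 0. The term did not pass the adjusted test (limma adjusted p = 0.973 after quantile normalization), and Gpr34 was above background in 1 of the 10 ank arrays.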

How the results depend on the processing

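After quantile normalization 159 genes were higher in the NP and 137 in the AF. The counts were 2709 and 85 on the deposited values, 671 and 94 with median centring, 101 and 107 without the mouse block, 262 and 184 with mouse as a random block, 603 and 581 of 19505 genes without the background filter, 161 and 113 with a stricter filter, 288 and 226 with array weights, and 816 and 505 with the call rule of the study (p without adjustment below 0.05, 1.75-fold or more). Chosen after seeing the data, that rule on the deposited values gave 3065 and 97, and the 1393 genes above background in all 10 arrays gave 18 and 35. Leaving out 1 mouse gave 1 to 300 genes higher in the NP (1 without mouse 39, 15 without 34, 41 without 41, 89 without 31, 300 without 48) and 47 to 219 in the AF (47 without mouse 39, 219 without 48), and on the deposited values, also chosen after seeing the data, 1829 and 74 without mouse 31, 2010 and 70 without 34, 1405 and 67 without 39, 1795 and 74 without 41, and 2996 and 98 without 48. The cause of these shifts was not tested. The tissue by genotype count was 0 under each alternative run, 5 of them (without each WT mouse) chosen after seeing the data, with the smallest adjusted p at 0.507 without ank mouse 31 and 0.587 without WT mouse 33.

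Genes named without a call changed sign as follows. On the deposited values Smpd3 read 0.32, Slc20a1 0.53, Slc20a2 0.35, Mgp 1.06, Atg12 0.13 and Car3 -0.0443. With median centring Slc20a1 read 0.0895, Mgp 0.62 and Car3 -0.48. Leaving out 1 mouse gave -0.63 (without 39) to 0.18 (without 41) for Mgp, with 0.10 without 31, and -0.13 (without 31) to 0.23 (without 41) for Rbm15. No called gene that is named reversed. Without the block 17 of 62 named calls were lost and 1 gene, Flt1, gained a call.

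Arrays carry no read depth. Signal over background limits the AF of mouse 31 most, and values at the ceiling or below background are bounds.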
